A study of Homo sapiens with 6 samples.

Results

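Mitochondrial protein import genes were examined in SW480 cells, an established human colon carcinoma line, after knockdown of gankyrin. The rule takes genes by their names, with earlier results of these data known: every symbol starting with TIMM or TOMM, and 10 further genes of the import machinery (PAM16, GRPEL1, GRPEL2, PMPCA, PMPCB, SAMM50, MTX1, MTX2, CHCHD4 and GFER). Of 36 protein-coding genes that fit this rule in the RefSeq annotation, 32 were measured, among 14199 genes tested in all. Each was represented by its brightest probe set that names only that gene, with a mean over the 6 arrays above 3.6 on the log2 scale. The lowest measured mean was that of TOMM40L, at 5.85, and the only single-gene probe set of TIMM23, at 2.24, fell outside. TOMM6 and TOMM7 had only probe sets shared with another gene, and TOMM20L was not analysed here.

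The cells were grown in serum-supplemented DMEM with antibiotics and carried an shRNA for 4 days. The control group was given a non-targeting shRNA (n = 3 arrays), and the knockdown group an shRNA against gankyrin (n = 3 arrays); no other agent is named for either group. Gankyrin, encoded by PSMD10, is an assembly chaperone of the proteasome. Whether the replicates are separate cultures is not said in the labels, so the p-values below reflect the scatter of these 6 arrays and that scatter may be technical. The sequence of the hairpin is not given in the sources used here.

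Nearly all mitochondrial proteins are encoded in the nucleus, made in the cytosol and imported. Precursors are recognised by receptors of the TOM complex, the translocase of the outer membrane, and pass through its TOMM40 channel. From there the TIM23 complex and its ATP-driven motor carry proteins with a cleavable presequence into the matrix, the TIM22 complex inserts carrier proteins into the inner membrane with the help of small TIM chaperones, the SAM complex inserts barrel proteins into the outer membrane, and the CHCHD4 and GFER relay folds cysteine-rich proteins in the intermembrane space. Presequences are then removed by the matrix processing peptidase, made of PMPCA and PMPCB.

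On these arrays PSMD10 went from 10.19 ± 0.04 in control to 6.45 ± 0.14 in knockdown (log2 signal, SD, n = 3 each), 13.4-fold lower, as the labels of the groups have it. On its other probe set past the filter the log2 fold change was -2.95, against -3.74 on this one. NFIL3 went from 9.33 ± 0.13 to 9.07 ± 0.05 (log2 fold change -0.26, limma adjusted p = 0.0281), and passed in 11 of 16 alternative fits. Among markers of the cell of origin, the epithelial genes EPCAM and KRT18 had control means of 12.20 and 13.05, and CDX2 was at 4.19. All 8 of 8 epithelial markers passed the filter. Of them, 1 rose (VIL1, log2 fold change 0.82) and 3 fell with knockdown (KRT19, CDH1 and CEACAM5, at -0.46, -0.64 and -1.14). Past the filter were 3 of 6 fibroblast, 3 of 4 leukocyte and 1 of 4 endothelial markers, and none of these 7 passed the test (lowest limma adjusted p = 0.237). The defining leukocyte marker PTPRC was at 2.66 in control, below the filter. The part of these epithelial changes in the results below was not tested. The summed linear signal of the epithelial list ran from 16619 to 17250 in control and from 16201 to 16515 in knockdown arrays. The summed linear signal of the leukocyte list, nearly all from LYZ, ran from 5065 to 5275 in control and from 4607 to 5251 in knockdown arrays. That of the fibroblast list ran from 166 to 224 and from 212 to 227, and that of the endothelial list from 51.0 to 56.8 and from 51.9 to 57.9. Probe sets for 18S ribosomal RNA were higher in knockdown by 0.79 to 1.29 on the log2 scale; their part in the results below was not tested. In such bulk RNA a lower level per cell and fewer cells with the transcript cannot be told apart.

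Control replicate 3 stood apart from the other arrays. The 3′ probe set of beta-actin exceeded the 5′ probe set by 1.82 on the log2 scale there, against 0.43 to 0.53 on the other arrays. For the bacterial dap transcript that serves as a spiked control the same difference was 3.09, against 0.76 to 1.01. Of the 54 single-gene probe sets of import genes past the filter, 14 lay more than 0.2 outside the range of the other 5 arrays on control replicate 3, 7 below and 7 above, whereas each other array had at most 1. The counts and values that follow are therefore given with and without that array.

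**Figure D1:**
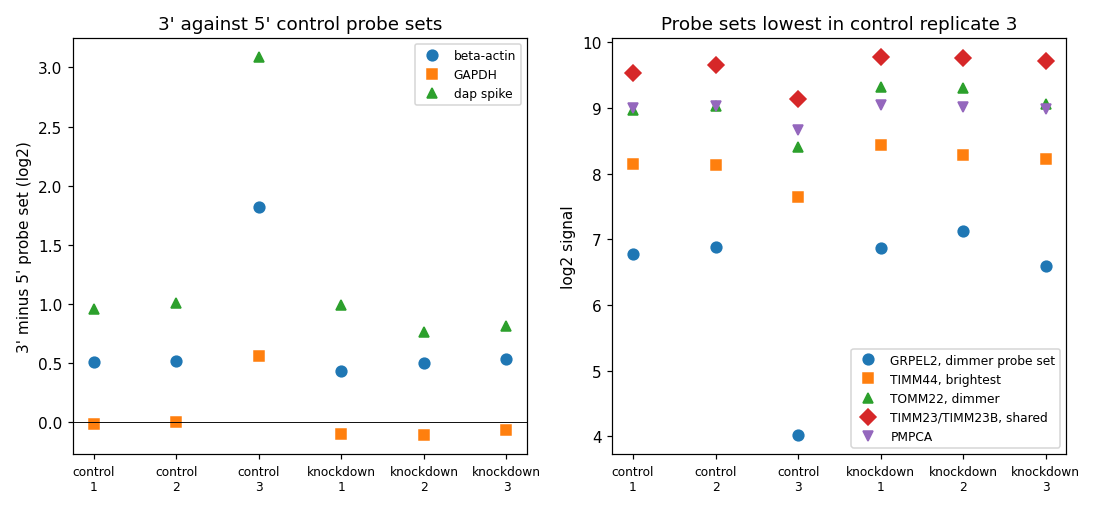
Left, the log2 signal of the 3′ minus the 5′ probe set of beta-actin, GAPDH and the dap spike on each array. Right, the log2 signal on each array of 5 import probe sets; all 5 are lowest on control replicate 3, and the dimmer GRPEL2 probe set is at 4.02 there against 6.60 to 7.13 elsewhere.

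Of the 32 import genes, 6 rose and 0 fell after gankyrin knockdown, and 26 did not pass (limma, Benjamini-Hochberg adjusted p under 0.05 over all genes tested; 9 higher and 3 lower at an unadjusted p under 0.05, where all 14199 genes gave 1861 and 3146). Across all genes 8.13% rose and 14.3% fell, 22.5% in all; among the import genes 18.8% passed. The changes were small. The 6 rises were between 1.10- and 1.31-fold, and the median log2 fold change was 0.01 over the import genes, against -0.02 over all genes. Knockdown and control values did not overlap for 13 of the 32 genes, 9 with knockdown higher and 4 with knockdown lower, a share of 40.6% where all genes gave 40.3%. Without control replicate 3 the counts were 8 rises and 1 fall, with 12.7% of all genes rising and 16.6% falling in that fit, and the 6 rises were among the 8, joined by TIMM21 and SAMM50; the fall was that of TOMM34. Leaving out another array gave fewer rises: 2 without control replicate 1, 3 without control replicate 2, and 1, 1 and 2 without knockdown replicates 1, 2 and 3. Over all 14199 genes the rises also dropped, from 1154 on all arrays to 909, 917, 630, 613 and 661 in the same order. TIMM23B passed in each of these fits.

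**Figure D2:**
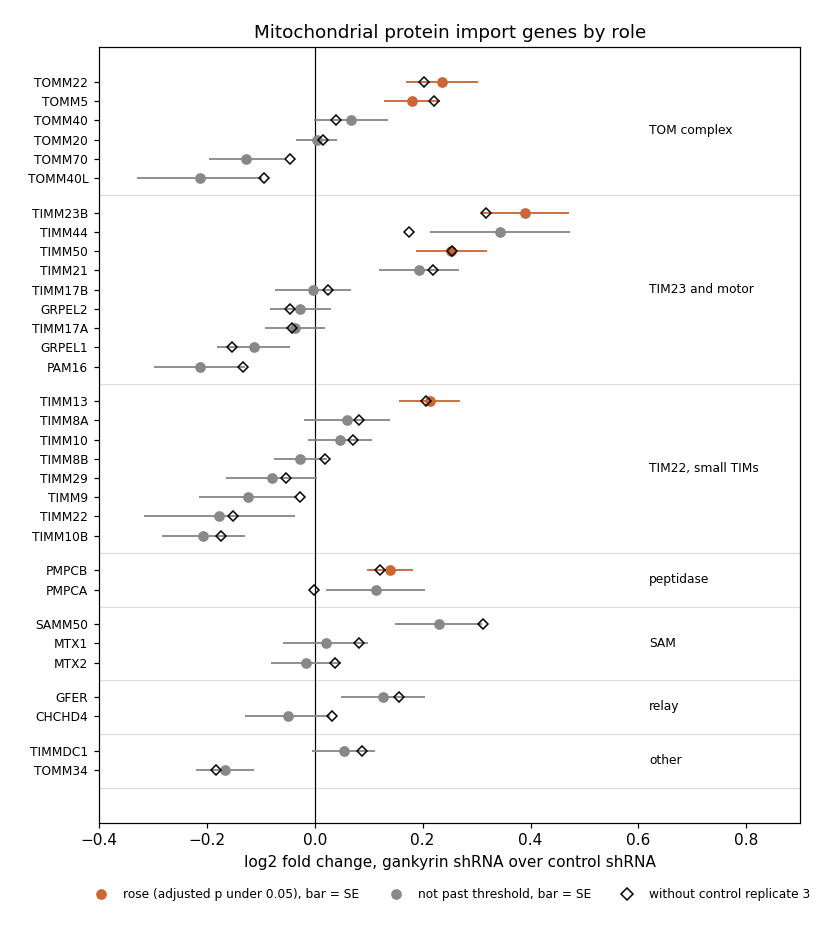
Log2 fold change of knockdown over control for the 32 import genes, grouped by role, with the SE as a bar; orange genes rose and grey genes did not pass the threshold, and open diamonds give the value without control replicate 3. All 6 rises lie between 0.14 and 0.39, and no gene lies below -0.22.

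Rises were spread over 4 of the machines. The largest belonged to TIMM23B, a close relative of TIMM23, the channel of the presequence translocase. TIMM23B was at 7.95, 7.87 and 7.69 in control replicates 1 to 3 and at 8.24, 8.27 and 8.17 in knockdown replicates 1 to 3. The groups did not overlap, and the lowest control value was that of replicate 3. TIMM23B rose 1.31-fold (log2 fold change 0.39 ± 0.08 SE, limma adjusted p = 0.00804), or by 0.32 without control replicate 3 (limma adjusted p = 0.00114). It passed in all 16 alternative fits run. With 3 arrays against 3, an exact two-sided permutation test of a single gene cannot go below p = 0.1, which any gene without overlap reaches.

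Probes for TIMM23B and TIMM23 can share transcripts, so the TIMM23B value is uncertain as a measure of that gene alone. Of 3 probe sets annotated to both genes, 2 differed by 0.01 and 0.04 between the groups and the other by 0.31. That other probe set was at 9.53, 9.65 and 9.14 in control and at 9.78, 9.76 and 9.71 in knockdown. Its low value again came from control replicate 3, without which the difference was 0.16 (limma adjusted p = 0.0448). Fitted on all arrays with every probe set past the filter tested on its own, none of these 3 passed (limma adjusted p = 0.942, 0.797 and 0.152, the last for the difference of 0.31).

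The promoters of TIMM23B and TIMM23 are shown because the 2 genes are near-copies that these arrays separate only in part. Sequences come from the RefSeq table (GRCh38.p14), which held promoters, from 250 bases before to 50 after the annotated start, for 29 of the 32 genes (all but TOMM5, GRPEL1 and TIMM8B). The windows below end before the start. Capitals mark the letters CCGGAAG on either strand, the core that ETS-family factors such as GABPA recognise; on the opposite strand they read CTTCCGG. TIMM23B is at chr10:49941963-49942052 and TIMM23 at chr10:45972393-45972482, both on the plus strand, in the same alignment.
TIMM23B: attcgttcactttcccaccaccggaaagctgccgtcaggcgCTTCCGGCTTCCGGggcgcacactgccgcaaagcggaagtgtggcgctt
TIMM23: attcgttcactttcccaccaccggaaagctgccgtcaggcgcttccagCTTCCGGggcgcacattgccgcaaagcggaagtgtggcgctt

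Over 294 aligned promoter bases the 2 genes shared 289. Within the windows shown they differed at 2 positions, counted from 1 at the 5′ end with the TIMM23B base first: G47A and C64T. The first lies in the left-hand CTTCCGG of TIMM23B, so within these windows TIMM23B holds 2 adjacent matches and TIMM23 holds 1. Over the whole promoter of 300 bases each gene holds 2.

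The receptor of the presequence translocase rose as well. TIMM50, the receptor that hands presequences from the TOM complex to TIM23, was at 8.98, 9.01 and 9.0 in control and at 9.36, 9.24 and 9.15 in knockdown. The control arrays were nearly level and every knockdown array was higher. TIMM50 rose 1.19-fold (0.25 ± 0.07 SE, limma adjusted p = 0.0216; 0.26 without control replicate 3, limma adjusted p = 0.00493). A dimmer TIMM50 probe set was at 5.41, 5.37 and 5.84 in control and 5.53, 5.42 and 5.40 in knockdown, a difference of -0.09 that did not pass. With the probe sets of a gene averaged, TIMM50 was at 0.08 and did not pass (limma adjusted p = 0.556). TIMM50 passed in 10 of 16 alternative fits, and in 3 of the 6 of these that left out 1 array.

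In the TOM complex, 2 of 6 measured genes rose and 0 fell, with a median of 0.04. Over all genes 8.13% rose and 14.3% fell, and 6 genes are too few to set a share against these. TOMM22, the central receptor that holds the complex together, was at 9.04, 9.12 and 8.98 in control and at 9.25, 9.38 and 9.22 in knockdown, without overlap. It rose 1.18-fold (0.24 ± 0.07 SE, limma adjusted p = 0.0298; 0.20 without control replicate 3, limma adjusted p = 0.0154). A second TOMM22 probe set nearly as bright was at 8.97, 9.03 and 8.41 in control and 9.32, 9.30 and 9.06 in knockdown, also without overlap. The difference on it was 0.42, of which 0.23 stayed without control replicate 3. Tested with every probe set on its own, it did not pass on all arrays (limma adjusted p = 0.148) and passed without that array (limma adjusted p = 0.0420). The dimmest TOMM22 probe set was at -0.18, or -0.02 without that array. With its probe sets averaged, TOMM22 was at 0.16 and did not pass (limma adjusted p = 0.176). It passed in 9 of 16 alternative fits.

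TOMM5, a small subunit beside the channel, was at 10.32, 10.33 and 10.45 in control and at 10.58, 10.51 and 10.55 in knockdown. It rose 1.13-fold (0.18 ± 0.05 SE, limma adjusted p = 0.0326; 0.22 without control replicate 3, limma adjusted p = 0.00110). Its second probe set, of almost the same brightness, differed by 0.11, and the groups did not overlap on it. Tested with every probe set on its own, it did not pass on all arrays (limma adjusted p = 0.138) and passed without control replicate 3 (limma adjusted p = 0.0480). With both averaged, TOMM5 was at 0.15 and did not pass (limma adjusted p = 0.0583). It passed in 8 of 16 alternative fits. The channel itself, TOMM40, differed by 0.07, and the presequence receptor TOMM20 by 0.00 with a 95% interval of -0.08 to 0.09. TOMM70, the receptor for carrier precursors, was at -0.13 on its brightest probe set and at 0.18 on the other, and at -0.05 and 0.06 without control replicate 3. TOMM40L, a relative of TOMM40, was at -0.21 with an adjusted p of 0.222 in limma, or at -0.09 without control replicate 3.

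**Figure D3:**
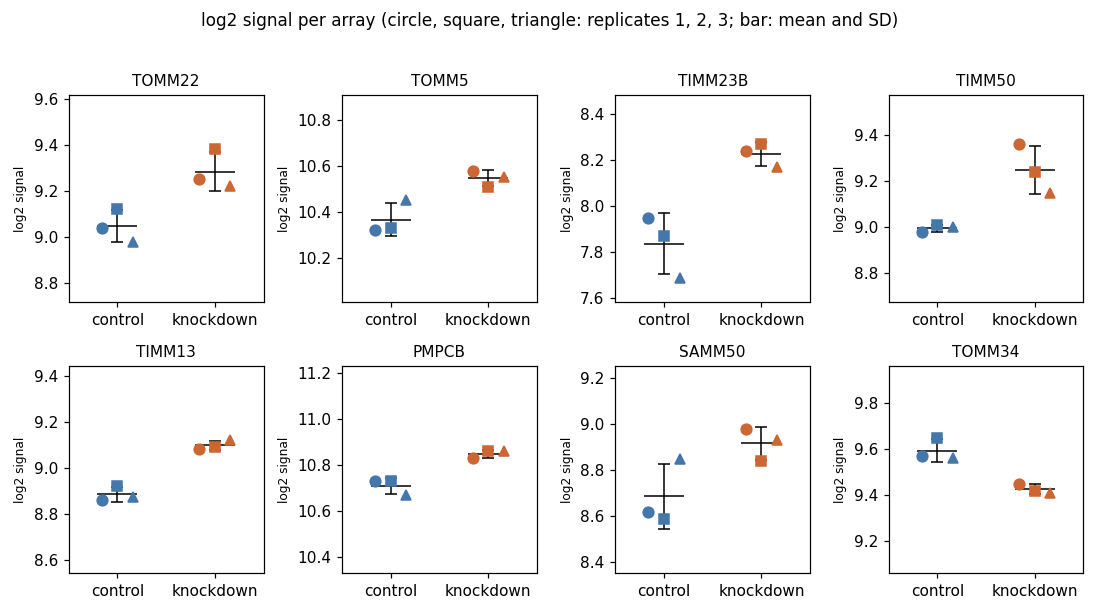
Log2 signal of each array for the 6 genes that rose and for SAMM50 and TOMM34, which passed only in some alternative fits; bars give the mean and SD of 3 arrays, and every panel spans 0.9 on the log2 scale. Knockdown and control do not overlap for the 6 genes that rose or for TOMM34, while SAMM50 overlaps because of control replicate 3.

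Among the chaperones of the intermembrane space, TIMM13 rose. TIMM13, which forms a ring with TIMM8A, was at 8.86, 8.92 and 8.87 in control and at 9.08, 9.09 and 9.12 in knockdown. The arrays of each group lay close together. It rose 1.16-fold (0.21 ± 0.06 SE, limma adjusted p = 0.0229; 0.21 without control replicate 3, limma adjusted p = 0.00703). TIMM13 passed in 11 of 16 alternative fits, and in 2 of the 6 of these that left out 1 array. Its partner TIMM8A differed by 0.06, with a 95% interval of -0.12 to 0.24, and TIMM8B by -0.03. TIMM9 and TIMM10, which form the other ring, were at -0.12 and 0.05, and at -0.03 and 0.07 without control replicate 3.

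Of the TIM22 complex, TIMM22, TIMM29 and TIMM10B did not pass. The inserting channel TIMM22 was at 7.18, 7.27 and 7.30 in control and at 7.25, 7.27 and 6.70 in knockdown, so its log2 fold change of -0.18 came from knockdown replicate 3 and was 0.01 without that array. TIMM29, a subunit of the human TIM22 complex, was at -0.08. TIMM10B, the small TIM that docks on TIM22, was lower on every knockdown array of its brightest probe set (7.52, 7.65 and 7.53 against 7.69, 7.79 and 7.84) but did not pass (-0.21 ± 0.08 SE, limma adjusted p = 0.0808). Its second probe set pointed the other way, at 0.16, or 0.02 without control replicate 3. Over the 8 genes of this group 1 rose, 0 fell and the median was -0.05, where 8.13% of all genes rose and 14.3% fell.

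The peptidase subunit PMPCB, which holds the catalytic site, was at 10.73, 10.73 and 10.67 in control and at 10.83, 10.86 and 10.86 in knockdown. PMPCB rose 1.10-fold (0.14 ± 0.04 SE, limma adjusted p = 0.0410; 0.12 without control replicate 3, limma adjusted p = 0.0343). This was the smallest of the rises, and it passed in 6 of 16 alternative fits. A much dimmer PMPCB probe set, with a mean of 4.24, was at -0.03, and with both averaged PMPCB was at 0.055 and did not pass (limma adjusted p = 0.663). The other subunit, PMPCA, was at 9.0, 9.03 and 8.67 in control and 9.04, 9.02 and 8.98 in knockdown. Its difference of 0.11 rested on control replicate 3 and was 0.00 without it.

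Within TIM23 and its motor, 2 of 9 measured genes rose (TIMM23B and TIMM50), 0 fell and the median was 0.00. The shares over all genes were 8.13% and 14.3%, and 9 genes are too few to set against them. TIMM44, which tethers the motor to the channel, was at 8.15, 8.14 and 7.64 in control and at 8.44, 8.29 and 8.23 in knockdown. The groups did not overlap, but the spread of the control arrays was wide, and TIMM44 did not pass (0.34 ± 0.13 SE, limma adjusted p = 0.0843; 0.18 without control replicate 3, limma adjusted p = 0.0628). TIMM21, which links TIM23 to the TOM complex, was at 8.66, 8.83 and 8.82 against 9.0, 8.86 and 9.03. It did not pass on all arrays (0.19 ± 0.07 SE, limma adjusted p = 0.0871) and passed as higher without control replicate 3 (0.22, limma adjusted p = 0.0207). A dimmer TIMM21 probe set was at 0.19, or 0.13 without that array, with overlapping groups.

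The remaining motor genes leaned the other way or lay near 0. PAM16, which holds the J protein of the motor in check, was at 8.57, 8.67 and 8.86 in control and at 8.58, 8.46 and 8.42 in knockdown (-0.21 ± 0.08 SE, limma adjusted p = 0.0995; -0.13 without control replicate 3). GRPEL1, the nucleotide exchange factor of the mitochondrial Hsp70, was at -0.11 on its brightest probe set and at -0.31 on the other. That second GRPEL1 probe set was at 8.52, 8.56 and 8.64 in control and at 8.33, 8.23 and 8.24 in knockdown, and it fell when every probe set was tested on its own (limma adjusted p = 0.0291; 0.00553 without control replicate 3). The paralog GRPEL2 was at -0.03 on its brightest probe set. The 2 channel-associated paralogs TIMM17A and TIMM17B were at -0.04 (95% interval -0.16 to 0.09) and 0.00 (-0.16 to 0.15).

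A dimmer GRPEL2 probe set gave the largest difference of any import probe set, 0.97, and it came from 1 array. This GRPEL2 probe set was at 6.78, 6.88 and 4.02 in control and at 6.87, 7.13 and 6.60 in knockdown. Without control replicate 3 the difference was 0.04. Neither value passed (limma adjusted p = 0.403 and 0.878 with every probe set tested on its own).

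In the SAM complex 0 of 3 genes passed on all arrays, where 22.5% of all genes did. SAMM50, its barrel-shaped core, was at 8.62, 8.59 and 8.85 in control and at 8.98, 8.84 and 8.93 in knockdown. The groups overlapped by 0.01, through control replicate 3. SAMM50 did not pass on all arrays (0.23 ± 0.08 SE, limma adjusted p = 0.0671) and passed as higher without that array (0.31, limma adjusted p = 7.2e-04). Of its dimmer probe sets past the filter, the brighter was at 0.16 and the other at 0.11, and the groups did not overlap on either. The metaxins MTX1 and MTX2, its cytosolic-side partners, were at 0.02 and -0.02. In the relay, the oxidoreductase CHCHD4 was at -0.05 and GFER, which reoxidises it, at 0.13, and neither passed.

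TOMM34 and TIMMDC1 match the symbols but stand outside the translocases: TOMM34 is a cytosolic co-chaperone and TIMMDC1 an assembly factor of respiratory complex I. TOMM34 was at 9.57, 9.65 and 9.56 in control and at 9.45, 9.42 and 9.41 in knockdown, lower on every knockdown array. At an adjusted p of 0.0502 in limma it missed the threshold (-0.17 ± 0.05 SE), and it fell without control replicate 3 (-0.18, limma adjusted p = 0.0110). TIMMDC1 was at 0.05.

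**Figure D4:**
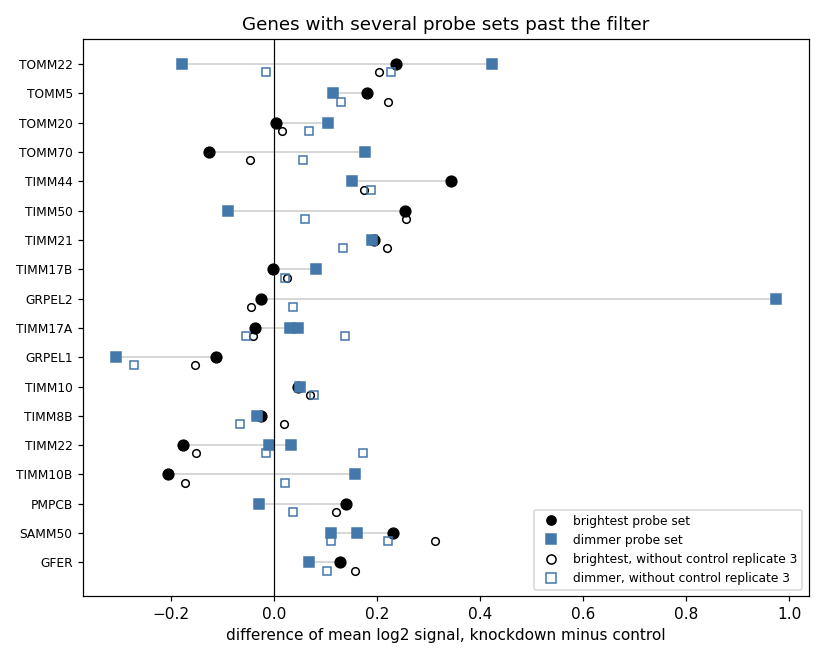
Difference of mean log2 signal, knockdown minus control, for the 18 import genes with more than 1 single-gene probe set past the filter; black circles are the brightest probe sets, blue squares the dimmer ones, and open symbols the same without control replicate 3. TOMM22, TIMM50, PMPCB, TOMM70, TIMM10B, TIMM22, TIMM17A, TIMM17B and GRPEL2 have probe sets on both sides of 0, and the GRPEL2 square at 0.97 moves to 0.04 without control replicate 3.

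Probe sets of 1 gene often disagreed in sign. Of the 22 dimmer probe sets, 12 had the sign of the brightest one. With every probe set past the filter tested on its own, which raises the number of tests to 32759, 2 of the 54 probe sets of import genes rose (those of TIMM13 and TIMM23B, limma adjusted p = 0.0457 and 0.0305) and 1 fell (GRPEL1), where 4.05% of all probe sets rose and 6.54% fell. The shared probe sets of TOMM6, at 0.03 and 0.06, and of TOMM7, at -0.05, did not pass.

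The promoters of the genes that rose are shown with that of GRPEL2, which did not pass, because the ETS letters were common among import genes whether or not they moved. Coordinates are GRCh38.p14; TIMM13 lies on the minus strand and the others on the plus strand, and each window is printed 5′ to 3′ along its gene. The PMPCB window is chr7:103297345-103297434, that of TIMM13 chr19:2427587-2427676, of TOMM22 chr22:38681867-38681956, of TIMM50 chr19:39480748-39480837 and of GRPEL2 chr5:149345349-149345443. Capitals again mark CCGGAAG on either strand.
PMPCB: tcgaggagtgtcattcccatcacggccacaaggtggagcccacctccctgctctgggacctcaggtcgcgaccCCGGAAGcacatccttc
TIMM13: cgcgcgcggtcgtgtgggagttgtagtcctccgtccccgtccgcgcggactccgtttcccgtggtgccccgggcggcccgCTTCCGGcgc
TOMM22: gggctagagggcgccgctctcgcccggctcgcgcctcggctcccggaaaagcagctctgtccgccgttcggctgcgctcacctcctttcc
TIMM50: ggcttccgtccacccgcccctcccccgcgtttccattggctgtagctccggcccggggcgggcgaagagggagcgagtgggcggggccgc
GRPEL2: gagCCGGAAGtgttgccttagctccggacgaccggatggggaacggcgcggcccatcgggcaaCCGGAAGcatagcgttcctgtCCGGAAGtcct

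The letters CCGGAAG were in 13 of 29 import promoters (44.8%), against 20.3% of the 11364 tested genes with a promoter in the table and 12.2% of all 27305 genes in it. Of the 5 rising genes with a promoter, 4 held them: TIMM23B, PMPCB, TIMM13 and TOMM22, the last only just past its start and outside the window shown. Among import genes that did not pass, 9 of 24 held them, 3 times over in GRPEL2. Among all tested genes the share was 22.3% for those that rose, 19.2% for those that fell and 20.3% for the rest. The NRF1 core GCATGCGC, named for a regulator of nuclear genes of mitochondria, was in 4 import promoters (PAM16, TIMM10B, TIMM9 and CHCHD4) and in 0 of the 5 that rose, against 5.73% of tested genes. AAGATGGC, a YY1 core, was in 3 (TOMM40L, PMPCA and TIMM50) against 5.86%, and the E-box CACGTG in 3 (TOMM20, TIMM10 and TIMM8A) against 12.1%. Both strands were searched, and NRF1 matches on the 2 strands of CHCHD4 overlap. A match of letters is a description of the sequence and not a binding site.

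A further list of 34 genes, called the other import genes here, gave changes in both directions. Beside genes of the import route it holds mitochondrial proteases, chaperonins and subunits of the MICOS complex. Its counts are therefore not counts of the import machinery alone. Of 32 measured, 8 rose and 3 fell (25.0% and 9.38%, read against the 8.13% and 14.3% of all genes), with a median of 0.09; without control replicate 3 they were 13 and 3, against 12.7% and 16.6%. DNAJC15 and SPG7 were not among the genes tested. The largest rise was that of AIFM1, which anchors CHCHD4 in the intermembrane space, by 1.38-fold (0.46 ± 0.10 SE, limma adjusted p = 0.00736). AIFM1 was at 9.38, 9.46 and 9.04 in control and at 9.76, 9.77 and 9.74 in knockdown, and the rise was 0.34 without control replicate 3.

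DNAJC19, a J protein of the inner membrane related to that of the import motor, was at 8.79, 8.93 and 8.73 in control and at 9.26, 9.24 and 9.21 in knockdown. It rose 1.34-fold (0.42 ± 0.07 SE, limma adjusted p = 0.00200), and its second probe set by 0.41. AGK, a lipid kinase that is also a subunit of the TIM22 complex, rose from 8.39 ± 0.09 to 8.79 ± 0.08 (SD, n = 3 each; limma adjusted p = 0.00354). Its second probe set was at 0.25 and did not pass, either when every probe set was tested (limma adjusted p = 0.149) or when it replaced the first, whose name ends in _s_at (limma adjusted p = 0.0890).

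Among further peptidases and proteases of the list, IMMP1L, IMMP2L and MIPEP rose, and XPNPEP3 and HTRA2, described below, fell. PITRM1, LONP1, CLPP, PARL, YME1L1, AFG3L2 and OMA1 did not pass. IMMP1L and IMMP2L, the 2 subunits of the inner membrane peptidase, rose by 0.35 ± 0.08 and 0.34 ± 0.07 (log2 ± SE, limma adjusted p = 0.0163 and 0.00700), and a second IMMP1L probe set by 0.57. MIPEP, which removes an octapeptide from some matrix proteins, rose by 0.33 ± 0.09 (limma adjusted p = 0.0257). With every probe set tested on its own, neither this MIPEP probe set nor the second, at 0.21, passed (limma adjusted p = 0.0653 and 0.149). Of the 6 fits without 1 array, IMMP1L and MIPEP each passed in 2. APOO and APOOL, subunits of the MICOS complex that joins the inner and outer membranes, rose by 0.36 ± 0.07 and 0.26 ± 0.07 (limma adjusted p = 0.00615 and 0.0206). APOOL also passed in 2 of the 6 fits without 1 array, whereas APOO and IMMP2L passed in all 6. With its 4 probe sets averaged, APOOL was at 0.067 and did not pass (limma adjusted p = 0.660).

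The genes that fell were HTRA2, ROMO1 and XPNPEP3. HTRA2, a protease of the intermembrane space, was at 7.75, 7.86 and 8.04 in control and at 7.37, 7.44 and 7.43 in knockdown. It fell 1.39-fold (-0.47 ± 0.09 SE, limma adjusted p = 0.00417; -0.39 without control replicate 3), and its second probe set was at -0.30. ROMO1, a small protein of the inner membrane, fell 1.30-fold from 9.33 ± 0.07 to 8.95 ± 0.07 (SD, n = 3 each; limma adjusted p = 0.00293). XPNPEP3, an aminopeptidase that trims proteins after presequence removal, fell on its brightest probe set (-0.42 ± 0.09 SE, limma adjusted p = 0.00950), but its 4 other probe sets were between 0.04 and 0.34 and the mean of all was 0.05. Nearest to the threshold among the rest were the chaperonin HSPD1 at 0.09, the protease OMA1 at 0.27, IMMT at 0.12 and MICOS10 at 0.12 (limma adjusted p = 0.0510, 0.0675, 0.105 and 0.139). When every probe set was tested on its own, a dimmer HSPD1 probe set, at 0.42, passed (limma adjusted p = 0.0281). Its other dimmer probe sets, at 0.44, -0.06 and -0.05, did not pass there (limma adjusted p = 0.310, 0.744 and 0.759).

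**Figure D5:**
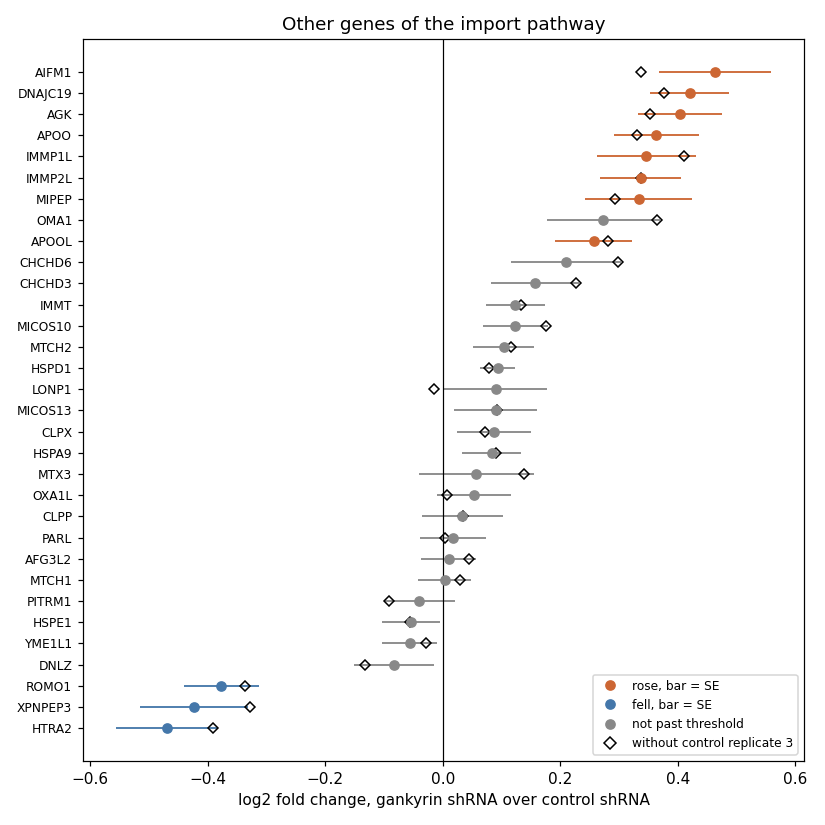
Log2 fold change of knockdown over control for the 32 measured genes of the further list, with the SE as a bar; orange genes rose, blue genes fell, grey genes did not pass, and open diamonds give the value without control replicate 3. The values run from -0.47 for HTRA2 to 0.46 for AIFM1, and 25 of 32 lie above 0.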

How the data were processed

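RNA from 6 ug of total RNA per sample was hybridised to one-colour Affymetrix arrays (1 array per sample, 3 control and 3 knockdown). The authors deposited 1 signal per probe set and array, taken as log2 from its range of 1.29 to 13.68 (array medians 4.20 to 4.25). MAS5 is named in the submitters' processing notes, with no version or role. Probe sets were named from the platform annotation and updated to RefSeq symbols through Entrez identifiers (41091 with 1 gene, 1801 with several, 11721 unnamed). Left out were 62 control probe sets and, of the rest, the lowest 40% (limit 3.6 on the log2 scale); each gene kept its brightest single-gene probe set. Knockdown was set against control in limma 3.58.1 (R 4.3.3; intensity trend, two-sided, Benjamini-Hochberg over 14199 genes, threshold 0.05) and the code was tested on simulated data. Alternatives covered the filter, scaling, variance model, probe set choice, replicate block and leaving out each array; testing every probe set was added after seeing the data. The members and lists were chosen with earlier results of these data known. Genes named were the target, NFIL3, every member, and of the other import genes all past the threshold and the 4 of smallest p among the rest. No protein sequences were used here. The number of arrays limits the precision.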

Additional observations from a re-analysis of the deposited data

How the results depend on the processing

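The 6 rises among import genes became 2 with arrays centred on their medians, 2 with no intensity trend in the variance, 2 with the probe sets of a gene averaged and 2 with every probe set tested on its own (the last added after seeing the data). Over all genes, centring, no trend and averaging gave 896, 914 and 1007 rises, against 1154 as reported. They ran from 1 to 8 when 1 array was left out: without control replicate 1 or 2 they were 2 and 3, without knockdown replicate 1, 2 or 3 they were 1, 1 and 2, and without control replicate 3 they were 8. Falls of import genes went from 0 to 1 with the lowest 60% of probe sets left out, with quantile normalization, with a robust variance prior and with probe sets averaged, and from 0 to 1 over the fits without 1 array. The fall was that of GRPEL1 with probe sets averaged, of PAM16 without control replicate 1 and of TOMM34 in the others. TIMM23B passed in all 16 alternatives tried and with every probe set tested. Over the fits without 1 array, rises of the other import genes ran from 5 to 13 and their falls stayed at 3, and across all genes rises ran from 613 to 1808 and falls from 1071 to 2353. The sign turned for TIMM50, at -0.09 with probe sets ending in _x_at or _s_at avoided, and for XPNPEP3, at 0.049 with probe sets averaged. Some genes that did not pass also changed sign. With probe sets averaged TOMM70 was at 0.025, TIMM17B at 0.038, GRPEL2 at 0.47 (from -0.03, limma adjusted p = 0.378) and TIMM17A at 0.013, the last at 0.03 with the same probe sets avoided. TOMM20 was at -0.0067 after centring and -0.0072 after quantile normalization, where TIMM17B was at 0.0056. Without 1 array, TOMM20 ran from -0.005 to 0.015, TIMM17B from -0.055 to 0.025, TIMM8B from -0.052 to 0.018, TIMM22 from -0.28 to 0.01, PMPCA from -0.0017 to 0.18, MTX1 from -0.033 to 0.082, MTX2 from -0.058 to 0.037 and CHCHD4 from -0.10 to 0.032. The cause was not tested. The labels do not say whether the replicate numbers pair the arrays. Deviations from the group mean correlated at 0.02, 0.11 and -0.01 across genes for same-numbered arrays, and from -0.07 to 0.05 for the others. These values cannot decide on a pairing, because the deviations of the 3 arrays of a group sum to 0. The fit with the replicate block gave 6 rises and 0 falls of import genes, with TIMM44 in and PMPCB out.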

Other observations

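The MICOS complex, which shapes the cristae and contacts the SAM complex, held 7 of the other import genes, a grouping made after their values were seen. On their brightest probe sets all 7 had higher means after knockdown, with log2 fold changes from 0.09 to 0.36 and a median of 0.16. Over all genes 6482 of 14199 had a higher mean. APOO and APOOL rose on all arrays, where 8.13% of all genes rose. Without control replicate 3 these 2 were joined by IMMT, CHCHD3, CHCHD6 and MICOS10 (limma, 6 of 7), with 12.7% of all genes rising in that fit. Of the 6 fits without 1 array, these 4 genes each passed in that 1 only. APOOL passed in 2 of them, APOO in 6 and MICOS13 in 0. CHCHD3 was at 9.93, 10.05 and 10.20 in control and at 10.13, 10.31 and 10.21 in knockdown, and MICOS10 was at 10.23, 10.20 and 10.37 against 10.38, 10.39 and 10.40. Control replicate 3 was the highest control array for both. APOOL was at -0.28, 0.14 and 0.15 on its 3 dimmer probe sets, none of which passed. The dimmer MICOS10 probe set was at -0.02 and did not pass either.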
